A study of Arabidopsis thaliana with 9 samples.

Results

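The comparison concerned abscisic acid (ABA), the hormone through which plants limit water loss, given to Arabidopsis thaliana of the ecotype Columbia (Col-0). It was made on 6 of the 9 arrays of the study, 3 from seedlings treated with 10 μM ABA and 3 from control seedlings that were irrigated with water, chosen by their sample titles. Both groups were 4 weeks old and both were sampled at 6 h, so that age, genotype and hour of harvest were shared and the presence of ABA was the labelled difference. No mutant or transgene was used. Root and shoot were harvested together from pots of a vermiculite, perlite and soil mixture, and per the study's methods the material of each treatment was combined before it was split into 3 portions, so the p-values below measure only the spread between portions of 1 pool, which may be technical. The question was which processes exogenous ABA raised and lowered across the genes on the array.

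ABA is perceived by the PYR/PYL/RCAR receptors, soluble proteins that, once they have bound the hormone, dock onto protein phosphatases of clade A of the type 2C family (PP2Cs) and block them. The phosphatases otherwise hold the SnRK2 protein kinases inactive. Released SnRK2 kinases phosphorylate ion channels in guard cells and bZIP transcription factors of the ABF/AREB and ABI5 type, which bind ABA-responsive elements in the promoters of genes for protective proteins, while the AFPs, named for their binding to ABI5, dampen its action.

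The arrays were Agilent one-colour arrays for Arabidopsis, on which 34392 of the 43603 gene probes could be assigned to 25426 loci. Between 68.9% and 71.9% of the probes were well above the background on the 6 arrays. Median intensities ran from 127 to 182 with control and from 191 to 254 with ABA, a difference that quantile normalization removed. The control arrays lay on 1 slide and the ABA arrays on 2 others, so slide and treatment cannot be told apart. Spots marked non-uniform were left out. They numbered 992 and 1141 on control replicates 1 and 2 and no more than 7 on each of the other 4 arrays. Correlations of the log2 values between arrays ranged from 0.932 to 0.986, and control replicate 1 had the lowest mean correlation with its own group, 0.952.

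In all, 22175 genes were tested with limma on the log2 scale, with the brightest probe standing for its gene. Values given for single arrays are log2 normalized intensities, in the order of replicates 1 to 3. Differences are ABA minus control on the log2 scale, so that 1 stands for 2-fold. A gene counted as called when its change was at least 2-fold and its limma p, after Benjamini-Hochberg adjustment over all genes tested, was under 0.05. By this rule 174 genes were upregulated by ABA (0.785% of those tested) and 146 were downregulated (0.658%). At these shares the lists below would hold few or no calls, so a list without calls is not in itself a result about its process. With the 28 upregulated and 7 downregulated genes that were at the background on all arrays of the dimmer group set to their lower bounds, the median rise was 3.79-fold and the median fall 2.76-fold, and 33 genes rose while 9 fell by at least 8-fold. In every called gene all ABA values lay on one side of all control values, a pattern that across all genes was seen for 9.37% in the upward and for 20.8% in the downward direction. The median log2 difference of all genes was -0.11, and the values below can be read against it. Without scaling between arrays this median was 0.47 and 95.7% of the calls were upward, against 54.4% as reported, 65.0% with scaling to the 75th percentile. The 320 called genes kept their direction under each of these scalings, whereas small negative differences of genes that were not called can turn positive without scaling, and where a list median printed below did so, both values are given. In whole seedlings, fewer cells of a type and less RNA per cell cannot be told apart.

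**Figure D1:**
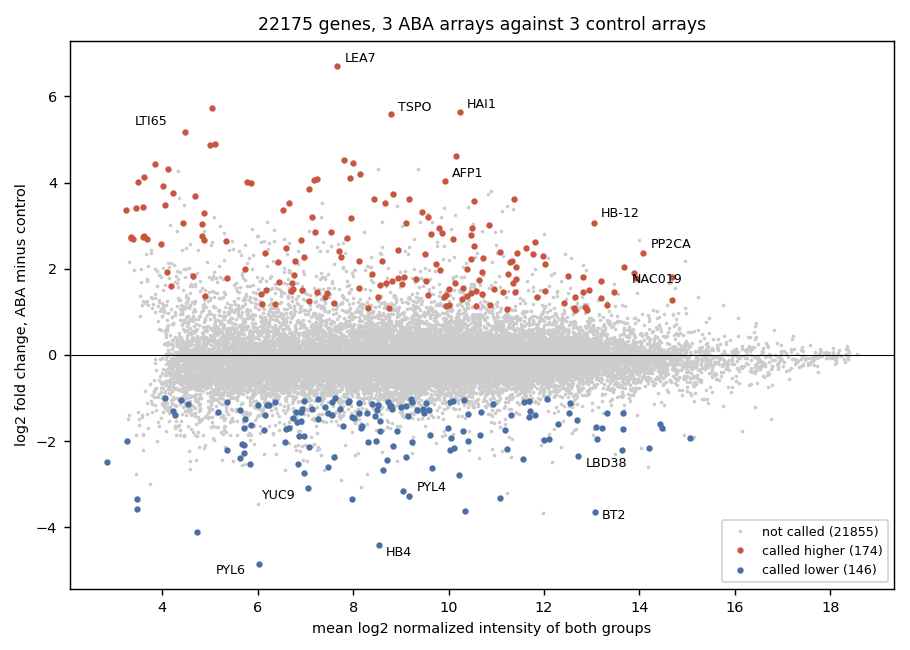
The difference between groups (y axis, log2, ABA minus control) is plotted against the mean log2 intensity of both groups (x axis) for the 22175 genes tested, with red points for the 174 genes called higher and blue points for the 146 called lower. The called genes were spread over the range of intensity, with larger rises than falls.

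The number of calls depended on the replicates. Without ABA replicate 1, 2 or 3 the upregulated genes numbered 16, 25 and 49 and the downregulated genes 8, 11 and 25. Without control replicate 1, 2 or 3 they numbered 77, 64 and 53, and 47, 44 and 30. Among the 320 called genes, 14 upregulated and 4 downregulated genes were called in all 6 of these smaller fits, and 78 and 95 were called in none of them. Below, the count after an adjusted p, such as 4 of 6, says in how many of the smaller fits the gene was called. Some probes were above the background on only 1 or 2 arrays of a group, so that their values there are near the floor. Among the genes named, these were LEA7, LEA4-1, LEA4-5, P5CR, CYP707A4, HB21, CML43, GA2OX8, SEP1 and AT4G10265 in the controls and PYL6, LDOX, CASP1 and EXPA15 with ABA.

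The genes at the front of the ABA pathway moved in opposite directions, with phosphatases up and several receptors down. Of the 14 receptor genes, 9 could be tested, 3 were downregulated and none was upregulated, with a median log2 difference of -0.69. The other 5, PYL3 and PYL10 to PYL13, were too dim, with no group in which every array stood well above background. PYL6 measured 8.78, 8.05 and 8.53 on the control arrays and 3.89, 4.13 and 2.82 on the ABA arrays. The groups were far apart, although 1 of the ABA arrays was not above background for this probe, and the difference was -4.84 ± 0.39 (SE, limma adjusted p = 0.00982, 5 of 6), or 28.7-fold. PYL4 gave 11.22, 10.47 and 10.74 on the control arrays and 7.44, 8.02 and 7.15 on the ABA arrays, a difference of -3.27 ± 0.30 (SE, limma adjusted p = 0.0123, 4 of 6). PYL5 gave 11.91, 11.43 and 11.49 on the control arrays and 9.03, 9.05 and 8.43 on the ABA arrays, a difference of -2.77 ± 0.24 (SE, limma adjusted p = 0.0113, 4 of 6). These 3 belong to the same branch of the receptor family. Among the receptors that were not called, PYR1, PYL1, PYL8 and PYL7 had ABA values below all control values, at -0.69, -0.55, -0.58 and -0.17. PYL2 overlapped at -0.99. PYL9 alone lay higher, at 0.61 (limma adjusted p = 0.116).

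Of the 7 clade A phosphatase genes that could be tested, 6 were upregulated, and the median log2 difference was 2.52. The remaining 2 members, AHG1 and HAI3, were below the filter on dim probes. HAI1, named for its strong induction by ABA, measured 8.45, 7.31 and 6.49 on the control arrays and 13.12, 13.07 and 12.97 on the ABA arrays. The ABA values were close together and the control values were not, and the difference was 5.64 ± 0.47 (SE, limma adjusted p = 0.0113, 4 of 6), which is 49.7-fold. HAI2 gave 5.56, 7.02 and 4.77 on the control arrays and 10.16, 10.27 and 10.25 on the ABA arrays, again with the wider spread among the controls, and rose by 4.44 ± 0.54 (SE, limma adjusted p = 0.0274, 1 of 6). The ABI1 and ABI2 phosphatases, known from dominant ABA-insensitive mutants, rose by 1.79 ± 0.18 (SE, limma adjusted p = 0.018, 1 of 6) and 2.95 ± 0.16 (SE, limma adjusted p = 0.00685, 2 of 6). HAB1 rose by 2.52 ± 0.21 (SE, limma adjusted p = 0.0113, 4 of 6) and PP2CA by 2.36 ± 0.22 (SE, limma adjusted p = 0.0144, 2 of 6). HAB2 had an adjusted p of 0.0461 with limma but a change of only 1.84-fold (0.88), under the threshold of 2-fold.

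The kinases between the phosphatases and the transcription factors gave 1 call. All 10 SnRK2 genes were tested and SNRK2.7 was upregulated, with a list median of -0.19, and of 0.45 without scaling between arrays. SNRK2.7 gave 6.04, 6.24 and 5.58 on the control arrays and 7.76, 7.41 and 7.17 on the ABA arrays, without overlap, and a difference of 1.49 ± 0.24 (SE, limma adjusted p = 0.0493, 0 of 6). The 3 kinases that carry most of the ABA signal, SNRK2.2, SNRK2.3 and OST1 (SNRK2.6), differed by -0.48, -0.63 and 0.76, none of them called. The other members lay at 0.21 for SNRK2.1, 0.03 for SNRK2.8, -0.14 for SNRK2.4, -0.24 for SNRK2.9, -0.27 for SNRK2.10 and -0.34 for SNRK2.5.

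Of 7 tested genes in the list of ABF- and ABI5-type bZIP factors, 4 were upregulated and the median was 1.47. The list and the 4 include GBF3, which is a relative and not itself of the ABF or ABI5 type. ABF3 gave 10.93 and 10.75 (replicate 2 left out as a marked spot) on the control arrays and 13.21, 13.05 and 13.12 on the ABA arrays, with clearly separate groups, and rose by 2.29 ± 0.16 (SE, limma adjusted p = 0.0115, 3 of 6). GBF3, a G-box binding relative, gave 8.49, 8.88 and 8.69 on the control arrays and 10.85, 10.75 and 10.76 on the ABA arrays and rose by 2.1 ± 0.15 (SE, limma adjusted p = 0.00684, 5 of 6). ABI5, which acts in seeds and young seedlings, rose by 2.48 ± 0.37 (SE, limma adjusted p = 0.0436, 1 of 6) and ABF2 by 1.47 ± 0.19 (SE, limma adjusted p = 0.0431, 0 of 6). ABF1, AREB3 and ABF4 overlapped between groups, at 0.44, 0.16 and 0.03. The other 2 members, EEL and DPBF2, could not be tested. Of the 4 AFP genes, AFP1 and AFP3 were upregulated. AFP1 gave 7.97, 7.97 and 7.76 on the control arrays and 12.14, 12.02 and 11.66 on the ABA arrays, a difference of 4.04 ± 0.17 (SE, limma adjusted p = 0.00348, 6 of 6) or 16.5-fold. AFP3 rose by 2.38 ± 0.23 (SE, limma adjusted p = 0.015, 2 of 6). AFP4 had ABA values above all control values but was not called (1.38, limma adjusted p = 0.0882), and AFP2 lay at 0.02.

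**Figure D2:**
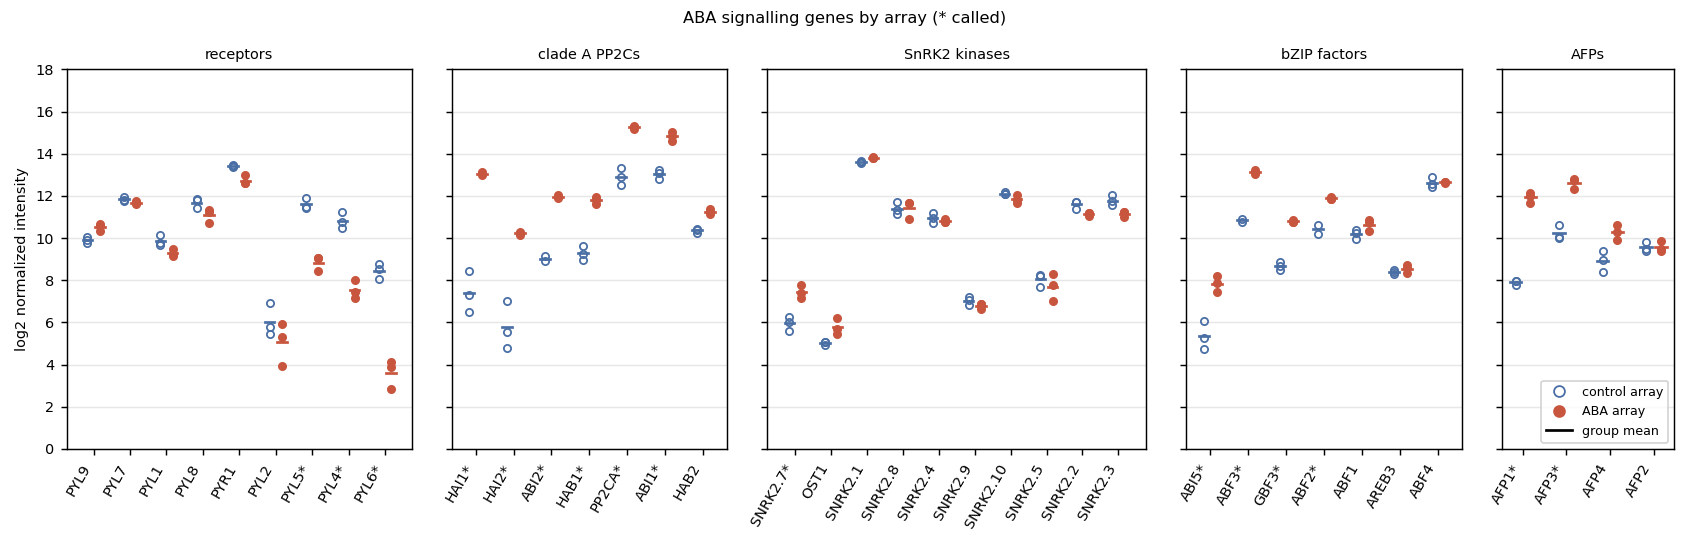
The log2 normalized intensity (y axis) of each tested receptor, clade A PP2C, SnRK2, bZIP and AFP gene (x axis) is shown for the 3 control arrays (open circles) and the 3 ABA arrays (filled circles), with bars for group means and an asterisk for called genes. The phosphatases HAI1 and HAI2 stand well above their controls and PYL4, PYL5 and PYL6 well below. Levels of different probes are not comparable.

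Of 6 tested genes for the synthesis of ABA none was called in either direction, and 4 lay above every control, with a list median of 0.40. Of 8 genes for its hydroxylation, its conjugation to glucose and its release from the conjugate, 1 was upregulated. In that list 3 lay above and 2 below every control, with a median of 0.04. Across all genes 0.785% were called upward and 0.658% downward, and 9.37% lay above and 20.8% below every control. NCED3, which encodes the rate-limiting dioxygenase induced by drought, overlapped between groups at -0.76. AAO3, for the last step of synthesis, lay above the controls at 0.78 (limma adjusted p = 0.115), and ABA1, ABA3 and ABA4 lay between 0.40 and 0.49, also above the controls. CYP707A2, an ABA 8′-hydroxylase, gave 8.69, 8.25 and 7.75 on the control arrays and 11.28, 11 and 10.83 on the ABA arrays, without overlap, and rose by 2.81 ± 0.27 (SE, limma adjusted p = 0.0145, 2 of 6), or 6.99-fold. Its relatives CYP707A4 and CYP707A1 had higher ABA values without being called, at 2.76 (limma adjusted p = 0.241) and 1.72 (limma adjusted p = 0.152), and CYP707A3 lay at -0.19. UGT71C5, which glucosylates ABA, had ABA values below all controls, at -1.08 (limma adjusted p = 0.0561). None of 5 ABA transporter genes was called. They ranged from -0.81 for NRT1.2 to 0.93 for ABCG30.

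Protective proteins of the late embryogenesis abundant (LEA) class, hydrophilic proteins that accumulate in drying seeds and in dehydrated tissue, included genes with large rises. Of 19 tested genes for LEA proteins, dehydrins and related proteins, 7 were upregulated and none was downregulated. Of these 7, all but AT3G02480 passed the filter on dim probes only through the ABA arrays, which favours a rise, so the count is a description. The median difference was 1.35, also with genes at the background set to their bounds. LEA7 measured 4.97, 1.94 and 6.03 on the control arrays and 10.95, 10.89 and 11.24 on the ABA arrays. The controls spread widely and only 2 of them were above the background, while the ABA arrays agreed closely, and the difference was 6.71 ± 1.00 (SE, limma adjusted p = 0.0432, 1 of 6), or 105-fold. In the smaller fits it ranged from 5.53 to 7.54, lowest without control replicate 2, the array at the background. LEA4-5 gave 3.97, 2.76 and 4.59 on the control arrays and 7.85, 7.93 and 7.60 on the ABA arrays, with 1 control array above the background, and rose by 4.02 ± 0.45 (SE, limma adjusted p = 0.0224, 2 of 6), AT3G02480 rose by 4.53 ± 0.73 (SE, limma adjusted p = 0.0495, 0 of 6), and LEA4-1, also with 1 control array above the background, by 2.76 ± 0.40 (SE, limma adjusted p = 0.0417, 1 of 6).

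For other protective genes the control value was only a bound, since the probe was at the background on all 3 control arrays. AT3G17520, a LEA gene, went from 2.18 ± 0.87 to 7.92 ± 0.39 (SD, n = 3 and 3) on the log2 scale, and was at least 18.2-fold higher with ABA when set against the lowest signal called above background on each array (limma adjusted p = 0.00982, 4 of 6). ECP63 was at least 5.03-fold higher and LEA18 at least 5.15-fold higher by the same reckoning, with limma adjusted p-values of 0.0383 and 0.0185, called in 1 and 2 of 6. RD29B, whose promoter served to define the ABA-responsive element, gave 1.53, 1.74 and 2.41 on the control arrays and 7.03, 6.96 and 7.19 on the ABA arrays, so that all 3 ABA arrays stood clear of the background, and was at least 10.1-fold higher (limma adjusted p = 0.00348, 6 of 6). HVA22B, a homologue of an ABA-induced barley gene, was at least 6.95-fold higher (limma adjusted p = 0.0367, 0 of 6).

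The better-known dehydration markers were not called, although their values with ABA mostly lay above the controls. RAB18, a dehydrin, gave 12.20, 12.10 and 11.01 on the control arrays and 13, 14.33 and 14.25 on the ABA arrays, a difference of 2.09 ± 0.48 (SE, limma adjusted p = 0.0951). RD29A gave 12.93, 13.98 and 10.99 on the control arrays and 14.49, 14.14 and 14.22 on the ABA arrays, a difference of 1.65 ± 0.72 (SE, limma adjusted p = 0.268), with the controls spread over a wider range than the gap between groups. RD20 measured 14.26, 14.56 and 12.78 on the control arrays and 15.86, 16.20 and 16.05 on the ABA arrays, without overlap, at 2.17 ± 0.47 (SE, limma adjusted p = 0.0862). ERD10 and COR47 lay at 1.35 and 1.17 and above the controls. LTI30, KIN1, KIN2 and COR15A overlapped at 1.31, 0.85, 0.57 and 0.35. In all, 13 of the 19 genes of the LEA list and 5 of the 7 of the RD29, RD20, RD22 and HVA22 list had ABA values above every control, and none had them below. Among those above, LEA7, LEA4-5, LEA4-1, AT3G17520, ECP63, LEA18, RD29B and HVA22B passed the filter on dim probes only through the ABA arrays. The filter itself favoured higher ABA values for these genes, and counts without them were not made. Across all genes 9.37% lay above and 20.8% below.

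**Figure D3:**
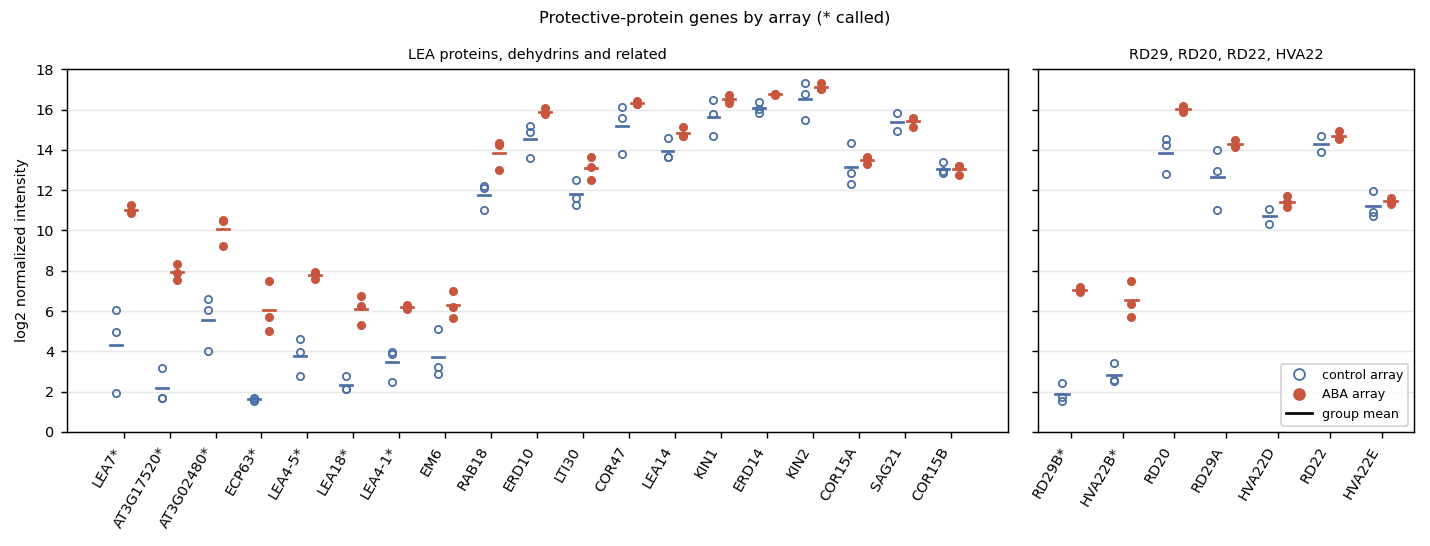
The log2 normalized intensity (y axis) of each tested gene for LEA proteins, dehydrins and related proteins and of the RD29, RD20, RD22 and HVA22 genes (x axis) is shown by array, with open circles for control, filled circles for ABA, bars for group means and asterisks for called genes. ABA values lay above all control values for 13 of 19 and for 5 of 7 genes. Genes near the background in the controls were kept only through their ABA arrays, which favours such a position. Levels of different probes are not comparable.

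Among genes of compatible-solute synthesis, which make small molecules that protect cells from water loss, single members rose. Of 8 proline genes 1 was called: P5CS1, the stress-induced first enzyme of proline synthesis, gave 10.71, 11.10 and 9.99 on the control arrays and 12.87, 12.83 and 13.15 on the ABA arrays and rose by 2.35 ± 0.30 (SE, limma adjusted p = 0.0308, 2 of 6). P5CR had a similar mean difference, 2.37, but control replicate 2 alone was low (11.82, 4.19 and 12.23 on the control arrays and 11.94, 11.49 and 11.91 on the ABA arrays), and without that array its difference was -0.24. P5CS2 was the lowest of the proline genes over all arrays, at -0.24 with overlapping groups. Of 4 tested genes for galactinol and raffinose synthesis, GolS2 rose by 2.49 ± 0.30 (SE, limma adjusted p = 0.0393, 0 of 6), with 9.96 and 10.80 (replicate 2 left out as a marked spot) on the control arrays and 12.88, 12.66 and 13.07 on the ABA arrays, while GolS3 lay at -0.89 with overlapping groups. Of the galactinol synthases 5 to 10, chosen after their values were seen, 2 could be tested. GolS8 lay below all controls at -0.77 without a call, and GolS10 gave 1.57, 2.17 and 1.91 on the control arrays and 5.46, 5.12 and 5.34 on the ABA arrays, at the background on all control arrays, and was at least 2.99-fold higher (limma adjusted p = 0.00544, 6 of 6).

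Among transcription factors, the homeodomain-leucine zipper (HD-Zip) class I genes HB-7 and HB-12, known regulators of growth under water deficit, were both upregulated. HB-12 gave 11.03, 12.03 and 11.47 on the control arrays and 14.49, 14.57 and 14.67 on the ABA arrays and rose by 3.07 ± 0.26 (SE, limma adjusted p = 0.0114, 3 of 6), and HB-7 gave 10.97, 10.49 and 10.00 on the control arrays and 13.12, 13.12 and 13.11 on the ABA arrays, with ABA values that hardly differed, and rose by 2.63 ± 0.25 (SE, limma adjusted p = 0.0145, 2 of 6). HB21 had higher ABA values without a call, at 2.47 (limma adjusted p = 0.0951), and the median of the 6 tested class I genes was 1.59. Of 11 stress and senescence NAC genes, NAC019 rose by 2.05 ± 0.27 (SE, limma adjusted p = 0.0337, 1 of 6) and NAC032 by 1.38 ± 0.21 (SE, limma adjusted p = 0.0457, 0 of 6). RD26 (NAC072) lay above the controls at 1.42 (limma adjusted p = 0.0808). Of 13 MYB genes, MYB2 was called, at 1.65 ± 0.20 (SE, limma adjusted p = 0.0274, 0 of 6). MYB74, MYB102 and MYB96 lay above the controls without a call, at 1.98, 1.55 and 1.14. MYB30 was the lowest of the MYB genes and lay below all controls, at -0.72 (limma adjusted p = 0.127).

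Of 12 tested genes in the list of heat shock factors and small heat shock proteins 1 was upregulated. HSFA6A gave 2.63, 3.15 and 1.95 on the control arrays and 7.54, 7.21 and 7.57 on the ABA arrays. It was at the background on all control arrays and clear of it on all ABA arrays, at least 13.1-fold higher (limma adjusted p = 0.00555, 6 of 6). The other 11 genes of its list were not called, from -1.74 for HSFA7A to 1.23 for HSFC1, and the list median was 0.06. The list did not include AT4G21870, which the study annotates as a class V heat shock protein. That gene was downregulated, at -3.15 (limma adjusted p = 0.0257, 2 of 6). CBF3 (DREB1A), a cold-response factor in the list of touch and wounding genes, gave 7.89, 8.77 and 8.32 on the control arrays and 10.73, 10.18 and 11.12 on the ABA arrays and rose by 2.35 ± 0.32 (SE, limma adjusted p = 0.0383, 0 of 6), while CBF2 and CBF1 lay at 1.39 and 0.68 and TCH3, a calmodulin-like touch gene, at -1.01.

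PUB19, a U-box ubiquitin ligase that acts against ABA responses, was the called gene among 9 E3 ligases and regulators of the pathway. It gave 6.70, 7.07 and 6.14 on the control arrays and 10.30, 10.33 and 10.16 on the ABA arrays and rose by 3.63 ± 0.25 (SE, limma adjusted p = 0.00642, 5 of 6), or 12.4-fold. RHA2B, an E3 ligase that acts in favour of ABA responses, lay at -1.12. Of 10 genes for senescence and chlorophyll breakdown, S40-3 rose by 2.71 ± 0.32 (SE, limma adjusted p = 0.0249, 1 of 6). The chlorophyll breakdown genes NYE1, NYE2, NYC1 and PPH lay above the controls at 1.5, 1.22, 0.82 and 0.53 without being called. SAG101 was lowest at -0.04, with overlapping groups. The list median was 0.68, and 6 of its 10 members had ABA values above every control, as did 9.37% of all genes.

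Several of the largest rises fell outside these lists. TSPO, a membrane protein of the secretory pathway that binds porphyrins and is induced by ABA, gave 5.96, 5.72 and 6.32 on the control arrays and 12.11, 11.30 and 11.34 on the ABA arrays. The groups were far apart, with a difference of 5.58 ± 0.28 (SE, limma adjusted p = 0.00348, 6 of 6) or 48-fold. The gene next to it on chromosome 2, AT2G47780, gave 8.17, 8.40 and 6.95 on the control arrays and 13.29, 11.94 and 12.14 on the ABA arrays and rose by 4.61 ± 0.51 (SE, limma adjusted p = 0.0218, 2 of 6). LBD1, a LOB-domain gene, gave 5.74, 6.12 and 6.31 on the control arrays and 10.30, 10.43 and 10.02 on the ABA arrays and rose by 4.2 ± 0.20 (SE, limma adjusted p = 0.00348, 6 of 6). MAPKKK18, a kinase of an ABA-activated MAP kinase cascade, gave 5.42, 3.97 and 6.05 on the control arrays and 9.54, 9.45 and 8.66 on the ABA arrays and rose by 4.07 ± 0.56 (SE, limma adjusted p = 0.0383, 1 of 6). Its nearest relative MAPKKK17 lay above the controls at 2.87 (limma adjusted p = 0.12), and MAPKKK20 was downregulated, at -1.70 ± 0.28 (SE, limma adjusted p = 0.05, 0 of 6) (both chosen after their values were seen).

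The remaining genes among the 15 largest rises carry no name in the reference. AT5G50360 rose by 4.11 ± 0.37 (SE, limma adjusted p = 0.0123, 3 of 6) and AT3G48240 by 4.08 ± 0.43 (SE, limma adjusted p = 0.018, 2 of 6). AT5G45690, at the background in the controls, was at least 5.82-fold higher (limma adjusted p = 0.018, 1 of 6). GSTU3, a tau-class glutathione S-transferase, gave 6.53, 6.27 and 6.72 on the control arrays and 8.92, 8.95 and 8.85 on the ABA arrays and rose by 2.4 ± 0.16 (SE, limma adjusted p = 0.00555, 6 of 6), while the other 32 tested tau and phi class genes were not called. GSTF12 was the lowest of them, at -1.25 with overlapping groups. IAA14, a repressor of auxin response that controls lateral rooting, was called among 17 Aux/IAA genes, with 7.26, 7.31 and 7.83 on the control arrays and 9.20, 9.37 and 9.45 on the ABA arrays and a rise of 1.88 ± 0.20 (SE, limma adjusted p = 0.018, 1 of 6). The B-box genes BBX30 and BBX31, which encode microproteins of light signalling, rose by 3.53 ± 0.31 (SE, limma adjusted p = 0.0115, 4 of 6) and 2.66 ± 0.28 (SE, limma adjusted p = 0.018, 2 of 6) (chosen after their values were seen).

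The 15 largest falls included HB4, HAT1, YUC9 and PIL1, and the families of these genes were chosen after their values were seen, so their counts are descriptions. HD-Zip class II factors are repressors best known for their induction in shade. Of 9 tested class II genes 4 were downregulated and 7 had ABA values below every control, as did 20.8% of all genes. HB4 gave 10.70 and 10.78 (replicate 2 left out as a marked spot) on the control arrays and 6.69, 5.86 and 6.43 on the ABA arrays and fell by 4.41 ± 0.28 (SE) on the log2 scale, or 21.3-fold (limma adjusted p = 0.0106, 6 of 6). HAT1 gave 10.74, 11.05 and 11.07 on the control arrays and 8.29, 8.08 and 8.63 on the ABA arrays, a difference of -2.62 ± 0.19 (SE, limma adjusted p = 0.00743, 5 of 6), and HB-2 gave 12.50, 12.84 and 12.94 on the control arrays and 10.20, 10.37 and 10.45 on the ABA arrays, a difference of -2.42 ± 0.17 (SE, limma adjusted p = 0.00656, 5 of 6). HAT3 differed by -1.27 ± 0.20 (SE, limma adjusted p = 0.0493, 0 of 6). HAT14, HAT9 and HAT22 lay below the controls at -0.89, -0.42 and -0.22, and HAT2 lay at 0.00.

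The YUCCA genes encode flavin monooxygenases that make the auxin indole-3-acetic acid. Of 5 that could be tested, YUC9 and YUC5 were downregulated. YUC9 gave 8.72, 8.55 and 8.54 on the control arrays and 4.78, 5.94 and 5.81 on the ABA arrays, a difference of -3.09 ± 0.32 (SE, limma adjusted p = 0.018, 1 of 6), and YUC5 gave 7.57, 6.72 and 7.01 on the control arrays and 4.26, 4.59 and 4.85 on the ABA arrays, a difference of -2.54 ± 0.27 (SE, limma adjusted p = 0.0185, 2 of 6). YUC8 and YUC2 also had ABA values below all controls, at -2.11 (limma adjusted p = 0.0977) and -1.46 (limma adjusted p = 0.0917), and YUC6 lay above them at 0.65. The other 6 YUCCA genes were too dim to test. Of 16 tested phytochrome genes and genes for interacting helix-loop-helix factors, 3 were downregulated and none upregulated, with a median of -0.22, and of 0.29 without scaling. In 7 the ABA values lay below every control and in 3 above, against 20.8% and 9.37% of all genes. PIL1, a helix-loop-helix gene that serves as a marker of shade, gave 9.08, 10.30 and 9.60 on the control arrays and 6.41, 5.50 and 7.02 on the ABA arrays and fell by 3.35 on the log2 scale (limma adjusted p = 0.0392, 0 of 6). In the smaller fits its difference ranged from -3.72 to -2.93. PRE1, a small helix-loop-helix protein that promotes elongation, and PHYB, the main red-light receptor, differed by -1.27 ± 0.18 (SE, limma adjusted p = 0.0383, 0 of 6) and -1.38 ± 0.19 (SE, limma adjusted p = 0.0367, 0 of 6). PHYD, HFR1 and PAR1 lay below the controls at -1.60, -1.02 and -1.19, none of them called, and PIF1 lay below at -0.41. PIF3, PIF4 and PHYE lay above the controls at 0.99, 0.38 and 0.37, also without a call.

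None of 14 auxin-induced SAUR genes was called, and none of the 17 Aux/IAA genes was downregulated. The SAUR median was -0.39, and 0.19 without scaling between arrays. SAUR9 was lowest at -1.99 and SAUR36 highest at 0.50. Among the Aux/IAA genes IAA29 was lowest, at -0.70, with overlapping groups. Of 42 expansin and xyloglucan endotransglucosylase (XTH) genes, whose products loosen the cell wall, none was called. XTH25 had the largest difference, 4.32, with 7.42 and 6.98 (replicate 2 left out as a marked spot) on the control arrays and 11.34, 12.84 and 10.39 on the ABA arrays (limma adjusted p = 0.0703), and XTH31 the lowest, -1.88. The list median was 0.30, with 25 positive and 17 negative differences. In 8 genes the ABA values lay above every control and in 6 below, against 9.37% and 20.8% of all genes. EXPA1, EXPA5 and EXPA15 were among those below all controls, at -1.71, -1.47 and -1.71.

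**Figure D4:**
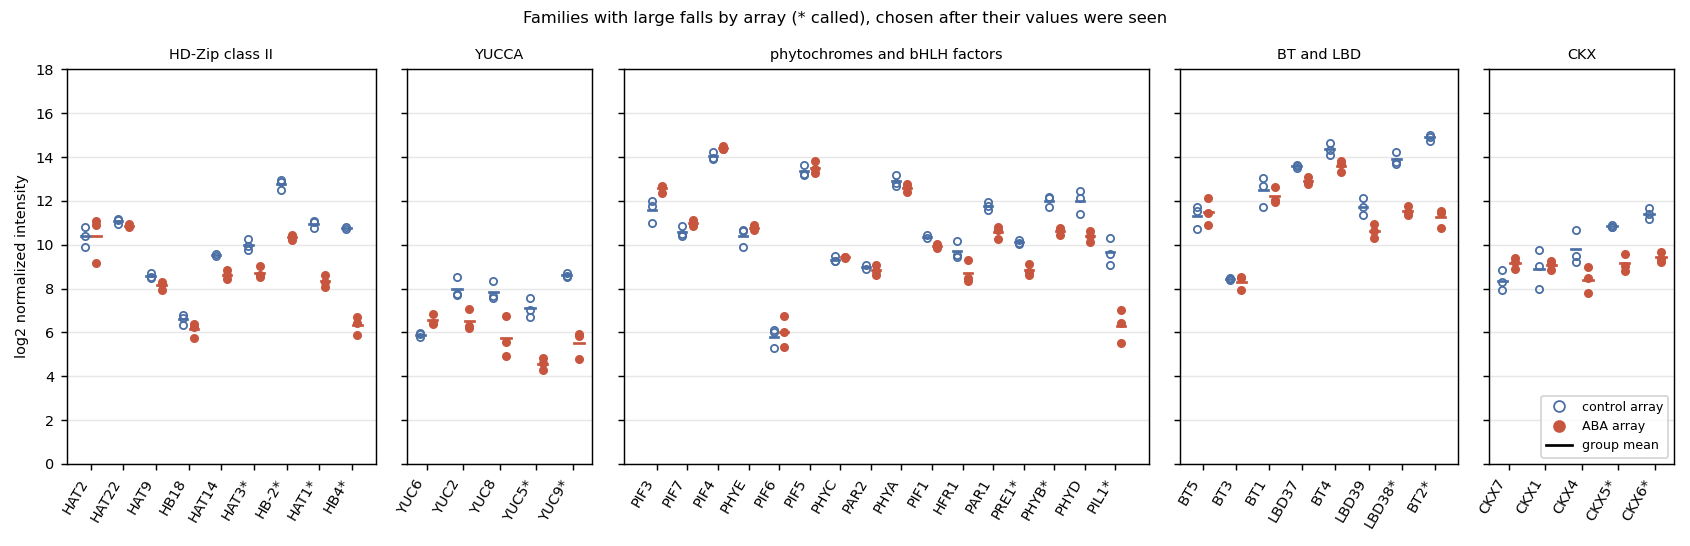
The log2 normalized intensity (y axis) of the tested HD-Zip class II, YUCCA, phytochrome and bHLH, BT and LBD, and cytokinin oxidase (CKX) genes (x axis) is shown by array, with open circles for control, filled circles for ABA, bars for group means and asterisks for called genes. HB4, HAT1, HB-2, YUC9, YUC5, PIL1, BT2 and LBD38 show the widest gaps. Levels of different probes are not comparable.

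Of 8 regulators of the BT and LBD families that are tied to nitrogen supply, 2 were downregulated. This list was chosen after its values were seen, so its count is a description. BT2, a BTB and TAZ domain protein that links nitrate, sugar and hormone responses, gave 14.93, 14.73 and 15.02 on the control arrays and 10.75, 11.53 and 11.45 on the ABA arrays, a difference of -3.65 ± 0.24 (SE, limma adjusted p = 0.00555, 6 of 6) or 12.5-fold. LBD38, a repressor of nitrate-responsive and anthocyanin genes, gave 13.77, 13.69 and 14.23 on the control arrays and 11.37, 11.49 and 11.77 on the ABA arrays, a difference of -2.35 ± 0.20 (SE, limma adjusted p = 0.0114, 4 of 6) (chosen after its values were seen). Its relatives LBD37 and LBD39 and the BT2 relative BT4 lay below the controls at -0.67, -1.10 and -0.76, without a call. Of the 5 nitrate uptake and reduction genes none was called, and 4 had ABA values below every control, as did 20.8% of all genes. The nitrate reductase gene NIA2 was lowest at -1.19 (limma adjusted p = 0.0991) and the nitrate transporter NRT1.1 highest at -0.42. The list median was -0.62, and -0.10 without scaling.

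In sulfate assimilation 2 of 15 tested genes were downregulated. APS3, an ATP sulfurylase that activates sulfate, gave 13.58, 12.79 and 12.92 on the control arrays and 11.35, 11.42 and 11.72 on the ABA arrays, a difference of -1.60 ± 0.25 (SE, limma adjusted p = 0.0457, 0 of 6). APR3, the reductase of the next step, gave 11.17 and 11.02 (replicate 1 left out as a marked spot) on the control arrays and 9.85, 9.54 and 9.79 on the ABA arrays, a difference of -1.37 ± 0.17 (SE, limma adjusted p = 0.0432, 0 of 6). The root transporter SULTR1;2 gave 9.01, 8.29 and 7.04 on the control arrays and 6.49, 6.70 and 6.53 on the ABA arrays, with ABA values below all controls, but was not called (limma adjusted p = 0.16). The median over the 15 genes was -0.55, and -0.04 without scaling.

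Of 5 tested cytokinin oxidase genes, a family chosen after its values were seen, 2 were downregulated. CKX6 and CKX5, enzymes that degrade cytokinin, differed by -1.98 ± 0.20 (SE, limma adjusted p = 0.0175, 2 of 6) and -1.69 ± 0.22 (SE, limma adjusted p = 0.0342, 0 of 6) (chosen after their values were seen). None of the 5 tested genes in the list of type-A response regulators, which are induced by cytokinin and dampen its signal, was called. ARR6 gave 9.5, 9.20 and 8.99 on the control arrays and 7.88, 7.13 and 5.86 on the ABA arrays, below all controls, at -2.27 ± 0.50 (SE, limma adjusted p = 0.09), and ARR7 lay at -1.10. ARR9 lay at 0.29. RR17, a type-A regulator that the list did not include and that was chosen after its values were seen, was upregulated by 1.25 ± 0.19 (SE, limma adjusted p = 0.0436, 0 of 6).

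RAP2.9, an ERF factor of the DREB group with a repressor motif, gave 12.82, 12.15 and 13.28 on the control arrays and 8.47, 9.74 and 10.08 on the ABA arrays and fell by 3.32 on the log2 scale (limma adjusted p = 0.043, 0 of 6). AT5G62360, an invertase and pectin methylesterase inhibitor-like gene, gave 11.99, 12.03 and 12.44 on the control arrays and 8.45, 8.24 and 8.90 on the ABA arrays, a difference of -3.62 ± 0.23 (SE, limma adjusted p = 0.00544, 6 of 6). AT3G46880 was at the background on all ABA arrays and at least 7.61-fold lower (limma adjusted p = 0.00544, 6 of 6). AT1G15540, likewise at the background with ABA, was at least 2.66-fold lower (limma adjusted p = 0.0383, 2 of 6). AT4G21870, AT1G62420 and AT5G14730 differed by -3.15 ± 0.37 (SE, limma adjusted p = 0.0257, 2 of 6), -2.73 ± 0.29 (SE, limma adjusted p = 0.018, 1 of 6) and -2.67 ± 0.42 (SE, limma adjusted p = 0.0476, 1 of 6). AT4G21870 is the heat shock protein gene named above.

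In defence families a few regulators fell. Of 49 WRKY genes none was upregulated and 2 were downregulated, WRKY27 with a difference of -2.02 ± 0.29 (SE, limma adjusted p = 0.0409, 0 of 6) and WRKY7 with -1.15 ± 0.18 (SE, limma adjusted p = 0.0474, 0 of 6). WRKY38, in the salicylic acid list, had the largest upward difference, 3.08, with 4.13, 4.98 and 4.88 on the control arrays and 6.30, 8.89 and 8.01 on the ABA arrays (limma adjusted p = 0.0862). CML42, a calmodulin-like calcium sensor, gave 10.57, 9.57 and 10.60 on the control arrays and 7.97, 8.45 and 8.30 on the ABA arrays and a difference of -2.01 ± 0.32 (SE, limma adjusted p = 0.0473, 1 of 6), while CML43 lay at 1.60 with overlapping groups. None of 13 salicylic acid genes was called. Their median was 0.90, 5 had ABA values above every control and none below, and PR5 was lowest at -0.33. Across all genes 9.37% lay above and 20.8% below.

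None of 22 jasmonate genes, 8 ethylene-jasmonate defence genes and 10 indole glucosinolate and camalexin genes was called, with medians of -0.03, -0.24 and -0.52, which without scaling were 0.48, 0.29 and 0.05. JAZ8, a repressor of jasmonate signalling, and ORA59, which integrates jasmonate and ethylene, had ABA values below all controls at -2.04 (limma adjusted p = 0.0829) and -2.23 (limma adjusted p = 0.122). VSP1 and HCHIB were the highest of their lists, at 1.28 and 0.19, with overlap. CYP81F2, which modifies indole glucosinolates, lay below at -1.95 (limma adjusted p = 0.0672), and MYB34 lay at 0.51.

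Genes of photosynthesis, cell division and gibberellin gave no calls. Across all genes 0.785% were called upward and 0.658% downward, shares at which lists of this size would hold few or no calls. Of 42 genes taken by the name patterns LHC, PSA, PSB and RBCS none was called. The patterns also took in PSAT1 and PSAT, which are not photosystem genes. The 42 stayed between -0.37 for PSAT1 and 0.44 for LHCB4.1 with a median of -0.03, and of 0.34 without scaling. Of 21 tested cyclin and CDKB genes none was called, from -0.72 for CYCD4;1 to 1.62 for CYCD4;2. Their differences were negative in 17 and positive in 4, against 13854 and 8321 of all genes. The median was -0.13, and 0.55 without scaling. None of 14 gibberellin genes was called, with GA3OX1, which makes active gibberellin, at -1.06 and GA2OX8, for an enzyme of gibberellin inactivation, at 1.2. The 3 tested GASA genes ran from -0.54 for GASA6 to 0.78 for GASA1.

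The list of guard cell ion transport had 8 members tested and none called. Its anion channel gene SLAC1 lay at 1.25 and the oxidase gene RBOHD at -1.84 (limma adjusted p = 0.0703), the latter with ABA values below all controls. Among 12 cuticular wax genes CER1, for alkane synthesis, was highest at 1.91 (limma adjusted p = 0.219), and KCS20 lowest at -0.30. Among 11 flavonoid genes the anthocyanin regulator PAP1 was highest at 2.27 (limma adjusted p = 0.112) and LDOX lowest at -2.33, where ABA replicate 2 gave 2.25 and was not above background, against 6.63 and 9.58 on the other ABA arrays.

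Of 11 clock genes none was called. PRR9, LHY and CCA1 had ABA values above all controls at 1.46, 0.89 and 0.88, and were the only members with a positive difference. The other 8, RVE8 and PRR7 among them, had negative differences. Of these, GI, ELF3 and LUX had ABA values below all controls at -0.34, -0.40 and -0.54. Across all genes 9.37% lay above and 20.8% below. The list median was -0.12, and 0.54 without scaling. PRR5 was lowest at -0.56. Of 11 low-oxygen genes none was called, from -2.30 for PDC2 to 2.00 for AT4G10265. Of 5 lipid transfer protein genes none was called, from -0.75 for LTP6 to 2.57 for LTP4. Of 12 seed storage and oil body genes the dormancy regulator DOG1 alone could be tested, at 0.91, and the other 11 were not well above background on all arrays of either group.

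**Figure D5:**
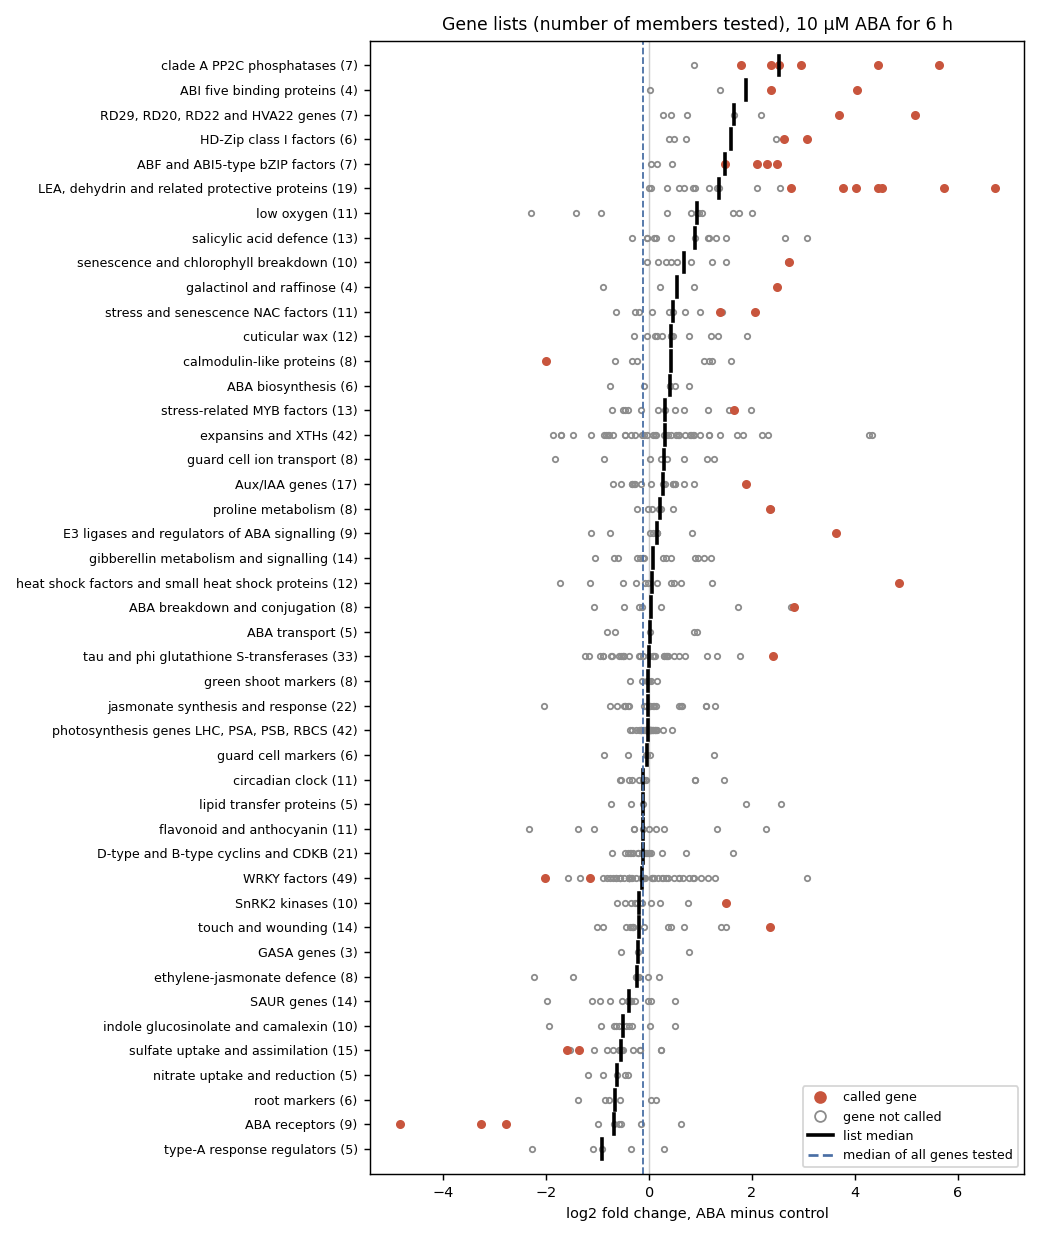
Each row is a gene list with at least 3 tested members, and the x axis gives the log2 difference, ABA minus control. Filled points are called genes, open points genes that were not called, black bars list medians and the dashed line the median of all genes, -0.11. The clade A phosphatases have the highest median, 2.52.

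The tissue was checked against markers. All 8 green shoot markers were well above background on every array, and their summed intensity was 1478050 to 1735040 on the control arrays and 1491360 to 1549000 on the ABA arrays. None was called, and the median was -0.02 (0.29 without scaling), from -0.36 for CA1 to 0.15 for LHCB2.1. Of 12 root markers 6 could be tested and 4 were never above background, EXPA7, EXP18, PRP3 and WOX5. The summed root signal was 1350 to 1871 with control and 1385 to 1420 with ABA. The Casparian strip genes CASP1 and CASP2 lay at -1.37 and -0.85, and the median of the 6 was -0.67 (0.05 without scaling). None was called, MYB36 was highest at 0.14, and the part of root content in the falls described above was not tested. Of 6 guard cell markers none was called, with summed intensities of 4432 to 6140 and 3224 to 6866 and KAT1 lowest at -0.89. Of 8 flower markers SEP1 alone could be tested, at -0.24.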

How the data were processed

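RNA of whole Arabidopsis seedlings was hybridised to one-colour Agilent arrays. Per the file headers, the authors' scanner files were made with Feature Extraction 10.7.3.1 and hold intensities (gProcessedSignal) after background subtraction, with deposited 0 or 1 marks for non-uniform spots and for spots well above background. The deposited series table holds log2 values that the authors quantile-normalized, per the study's methods. Its ABA columns matched array files of another number (array ABA 1 to column ABA 3, ABA 2 to ABA 1, ABA 3 to ABA 2), so it served only as an alternative.

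Control and outlying spots were left out and log2 intensities were quantile-normalized over the 6 arrays (R 4.3.3). A probe was kept if every array of the control or the ABA group showed it well above background and each group had 2 unmarked spots, and the brightest kept probe stood for its gene. Groups were compared with limma 3.58.1 (lmFit, eBayes) and Benjamini-Hochberg adjustment. With 3 arrays against 3, an exact permutation test of a single gene could not go below p = 0.1. The number of arrays limits the precision. The steps were tested on simulated data.

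A gene below background on all arrays of a group was given as at least N-fold, the bright group's mean against the mean, in the dim group, of the higher of the probe's own value and the lowest value of a probe well above background on that array.

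Members and gene lists were chosen with earlier results of these data known. The genes named were the 15 largest rises and 15 largest falls with a locus and separate groups, all members of the receptor, PP2C, SnRK2, bZIP and AFP lists, and of other lists up to 6 called members or, with fewer than 2 called, the highest and lowest. Other list members named in the text were chosen after their values were seen. The fixed symbol was found at the locus for 809 of 812 list members. Name patterns for aquaporins, trehalose enzymes and cysteine-rich kinases also took in other genes, so these families were not used. The pattern for photosynthesis genes also took in PSAT1 and PSAT, and that list was kept. Motif shares in promoters were not computed and no sequences are given. Alternatives covered scaling, background correction, marked spots, dim probes, probe choice, tests, blocks and each array left out.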

Additional observations from a re-analysis of the deposited data

How the results depend on the processing

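The direction of the named genes that were called was kept under every alternative that gave a value, while the number of calls was not. Genes up numbered 174 and genes down 146 as reported. They numbered 173 and 93 with 75th percentile scaling, 1400 and 63 without scaling, 181 and 95 with marked spots kept, 62 and 33 with no filter on dim probes, and 180 and 94 in the authors' series table. With array weights they numbered 371 and 366, and with slide as a random block 517 and 601, where the estimated correlation within a slide was -0.25. At an unadjusted p, limma gave 616 and 726 and the methods' t-test 387 and 472, while that t-test gave 0 and 0 after Benjamini-Hochberg adjustment. The replicate block also gave 0 and 0, with 626 and 751 genes at an unadjusted p under 0.05 and 2-fold. The block used the numbers of the array files, which showed no pairing (correlations of deviations 0.06, -0.15 and 0.11, with 1 of 3 ABA arrays closest to the control of its own number). The series table numbers the ABA arrays differently, and pairing by its numbers was not tried. Without control replicate 1 and ABA replicate 2, an alternative chosen after seeing the data because these had the lowest array weights, 0 and 0 were called, against 715 and 722 at an unadjusted p with 2-fold. Leaving out 1 array gave 16 to 77 genes up and 8 to 47 down, lowest without ABA replicate 1 and highest without control replicate 1. The other alternatives (all 9 arrays, normexp, probes above background on all 6 arrays, mean or dimmest probe, no fold threshold, a mean-variance trend) gave 147 to 192 up and 111 to 167 down. Of 62 named called genes, 58 were called with 75th percentile scaling, 59 without scaling and between 12 and 36 with 1 array left out. Among all 320 called genes, AT5G19120 turned from -1.61 to 1.16 with marked spots kept and AT4G28450 from -1.27 to 0.66 with its dimmest probe. Why the counts moved was not tested. Signal near the background limits folds for 28 genes up and 7 down, given as bounds. Motif shares were not run.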

Other observations

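Further named genes among those called, chosen after their values were seen, carried roles that the lists above did not cover. The count after an adjusted p is again the number of the 6 fits with an array left out that called the gene. EDL3, an F-box gene that acts in ABA responses, gave 6.08, 5.11 and 6.13 on the control arrays and 8.91, 8.52 and 8.45 on the ABA arrays and rose by 2.85 ± 0.31 (SE, limma adjusted p = 0.0216, 1 of 6). CIPK5, a kinase that works with calcineurin B-like calcium sensors, gave 8.31, 9.63 and 9.26 on the control arrays and 11.81, 11.75 and 12.00 on the ABA arrays and rose by 2.79 ± 0.34 (SE, limma adjusted p = 0.0281, 2 of 6). NF-YA5, a nuclear factor Y subunit known from drought resistance, rose by 1.09 ± 0.16 (SE, limma adjusted p = 0.0416, 0 of 6). UBC32, a ubiquitin-conjugating enzyme of the endoplasmic reticulum, and ALDH7B4, an aldehyde dehydrogenase of the antiquitin family, rose by 1.47 ± 0.16 (SE, limma adjusted p = 0.022, 0 of 6) and 1.28 ± 0.21 (SE, limma adjusted p = 0.0495, 0 of 6). The sucrose synthase SUS3 and the UDP-glucose epimerase UGE5 rose by 1.78 ± 0.26 (SE, limma adjusted p = 0.0431, 0 of 6) and 1.67 ± 0.25 (SE, limma adjusted p = 0.0452, 0 of 6), both genes of sugar nucleotide metabolism. Repressors of flowering from the DOF family, CDF1 and CDF3, rose by 1.54 ± 0.21 (SE, limma adjusted p = 0.0471, 0 of 6) and 1.16 ± 0.17 (SE, limma adjusted p = 0.0445, 0 of 6).

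Among the falls, BZS1, a B-box protein that links light and brassinosteroids, gave 8.25, 8.19 and 8.01 on the control arrays and 5.77, 6.43 and 5.82 on the ABA arrays, a difference of -2.15 ± 0.22 (SE, limma adjusted p = 0.0175, 1 of 6). Brassinosteroid genes were also present, with CYP90D1, a hydroxylase of the synthesis pathway, at -1.06 ± 0.14 (SE, limma adjusted p = 0.0346, 0 of 6) and BEH1, a homologue of the factor BZR1, at -1.09 ± 0.16 (SE, limma adjusted p = 0.0432, 0 of 6). ABCB21, an auxin transporter, gave 12.38, 11.69 and 12.84 on the control arrays and 10.12, 9.77 and 10.48 on the ABA arrays, without overlap, and differed by -2.18 ± 0.34 (SE, limma adjusted p = 0.0457, 1 of 6). NAS1, a nicotianamine synthase of metal transport, gave 10.90, 11.69 and 11.01 on the control arrays and 9.04, 9.19 and 8.86 on the ABA arrays and differed by -2.17 ± 0.24 (SE, limma adjusted p = 0.0221, 2 of 6). MKK7, a MAP kinase kinase of defence and auxin transport, and ERF9, a repressor of the ERF family, differed by -1.65 ± 0.19 (SE, limma adjusted p = 0.0246, 0 of 6) and -1.93 ± 0.21 (SE, limma adjusted p = 0.0218, 1 of 6). Single members of a family do not describe the family, and these families were not counted.

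Of the called genes, 4 pairs were next to each other in the order of the tested loci, and both members moved the same way in each. TSPO and AT2G47780, AT3G16990 and UBC32, and AT5G40790 and AT5G40800 rose, and UGT72E1 and BEH1 fell. A locus was known for 142 upregulated and 125 downregulated genes, among 18594 tested loci. Whether 4 pairs are more than random placement of these genes would give was not tested.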
